A study of Mus musculus with 4 samples.

Results

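The Bcl2 family decides whether a thymocyte lives or dies at the mitochondrion, and 10 of its genes were examined here for binding of the E protein E2A. They were Bcl2, Bcl2l1, Mcl1, Bax, Bak1, Bcl2l11, Bbc3, Pmaip1, Bid and Bad, of 22350 protein-coding genes on the chromosomes with peaks. ChIP-Seq with the E2A antibody V-18 pulls down the chromatin fragments that E2A occupies, and peaks are the places where reads from them pile up over an input. An E2A peak was counted for a gene when its midpoint lay in the gene body or within 100 kb of it, and this rule gave 68 of the 17532 peaks of DP cells and 6 of the 1516 peaks of iNKT cells.

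Both cell types came from LckCre+ mice with floxed alleles of both Id genes (Id2 f/f, Id3 f/f), called L-DKO, in which Cre driven by the Lck promoter deletes Id2 and Id3 in developing T cells. Id2 and Id3 encode inhibitors of E proteins, and the deletion was shared by all samples. The mice were 3 to 5 weeks old, of the C57BL/6 strain or hybrids of C57BL/6 and 129, and cells were pooled from 3 to 4 mice per sample. DP cells were sorted from the thymus as CD1dTet- CD4+ CD8+, the stage before selection by CD1d, and iNKT cells as CD1dTet+ TCRβ+, the stage after it. Each cell type gave 1 E2A library and 1 input library, which is DNA taken without precipitation. Without replicates there was no error between mice or libraries, so no difference between DP and iNKT cells could be tested. Peak lists hold no expression values, and the sorted identities were therefore not checked against marker genes. Binding in mice with intact Id2 and Id3 is not analysed here.

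The members fall into classes by their role. Bcl2, Bcl2l1 (which encodes Bcl-xL) and Mcl1 are pro-survival genes whose proteins hold the effectors Bax and Bak1 in check. The BH3-only members Bcl2l11 (Bim), Bbc3 (Puma), Pmaip1 (Noxa), Bid and Bad are triggers that bind the pro-survival proteins or act on the effectors. In the thymus, Bcl-xL is known to sustain DP cells, Mcl1 is needed at several stages, and Bim removes self-reactive cells during negative selection.

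E2A binds E-boxes of the form CANNTG, and sequences from within the highest peaks and the shared peaks are shown first so that their E-boxes can be seen. The lists give peak intervals without summits, so which of these E-boxes was bound is not known. Those searched here were CAGGTG, which on the other strand reads CACCTG, and the palindrome CAGCTG, and capitals mark these and no other E-box. All are from the mm9 assembly and are given on its plus strand. The first pair are the stretches of 200 bases richest in E-boxes within the highest DP peaks of Bcl2l1, both in an intron, at chr2:152642443-152642642 and chr2:152620046-152620245. They were picked for their E-boxes, and the 200 bp at the midpoint of the first peak held 0 CAGGTG and 0 CAGCTG.
Bcl2l1, peak 14.7 kb from the 5′ end: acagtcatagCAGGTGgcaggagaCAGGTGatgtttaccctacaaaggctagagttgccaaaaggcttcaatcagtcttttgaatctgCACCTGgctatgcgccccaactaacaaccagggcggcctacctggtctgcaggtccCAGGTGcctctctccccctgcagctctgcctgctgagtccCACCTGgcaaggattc
Bcl2l1, peak 37.3 kb from the 5′ end: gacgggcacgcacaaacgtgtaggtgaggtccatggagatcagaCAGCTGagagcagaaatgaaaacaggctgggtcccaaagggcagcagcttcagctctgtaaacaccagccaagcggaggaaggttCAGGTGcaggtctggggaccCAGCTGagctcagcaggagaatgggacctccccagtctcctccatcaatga

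The next sequences are from the sites called in both cell types and hold the E-box nearest to the midpoint of the iNKT peak. They lie at chr3:95472738-95472837 and chr3:95478444-95478543 (both downstream of Mcl1), chr2:127978704-127978803 (an intron of Bcl2l11), chr6:120880799-120880898 (upstream of Bid) and, cut to 30 bases because it overlaps an exon, chr7:52671126-52671155 (downstream of Bax). At Mcl1 and Bcl2l11 the same E-box was also the nearest to the midpoint of the DP peak. The iNKT site of Bid held a pair of CAGCTG boxes with 6 bases between them.
Mcl1, E-box 10.1 kb from the 5′ end: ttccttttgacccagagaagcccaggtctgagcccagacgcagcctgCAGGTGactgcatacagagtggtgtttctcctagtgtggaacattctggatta
Mcl1, E-box 15.8 kb from the 5′ end: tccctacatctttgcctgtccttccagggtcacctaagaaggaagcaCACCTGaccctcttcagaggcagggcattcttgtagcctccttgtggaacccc
Bcl2l11: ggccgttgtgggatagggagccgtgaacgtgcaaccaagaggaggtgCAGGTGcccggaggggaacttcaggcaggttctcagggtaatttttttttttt
Bid: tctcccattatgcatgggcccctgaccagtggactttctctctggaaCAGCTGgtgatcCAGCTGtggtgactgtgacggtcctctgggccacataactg
Bax: ccgaccggcggaCAGCTGtggacttgcgtg

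E2A peaks were called at 9 of the 10 loci in DP cells, where 65.1% of all protein-coding genes had at least 1 by the same rule, and Pmaip1 was the exception. Bcl2l1 had the most with 15, followed by Bcl2l11 and Bad with 10 each, Mcl1 and Bbc3 with 8 each, Bak1 with 7, Bid with 6, Bcl2 with 3 and Bax with 1. The median was 7.5 DP peaks per member against 2.0 over all protein-coding genes. Per megabase of window, which allows for the length of the gene, the medians were 36.0 and 6.07. These are descriptions of 1 library, and the members were not tested as a group. Binding near a gene does not say which gene it serves, and of the 68 DP peaks 31 had a start site of the member as the nearest protein-coding start site while 37 lay nearer to another gene.

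**Figure D1:**
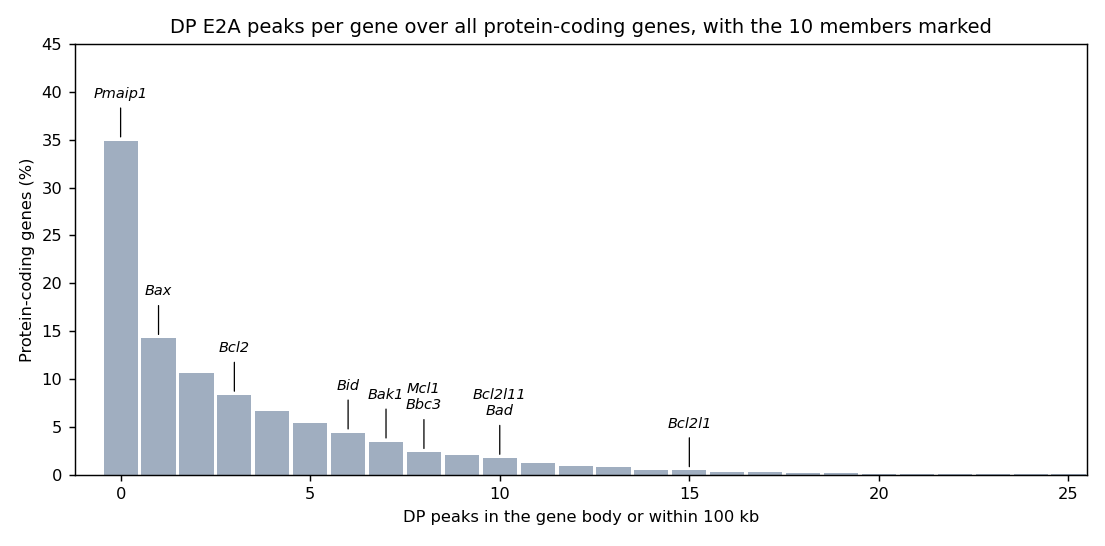
Number of E2A peaks in DP cells in the body of a gene or within 100 kb (x axis) against the share of 22350 protein-coding genes with that number (y axis, percent), with the 10 Bcl2 family genes marked. Bcl2l1 stood at the 98.3 percentile of all genes and Bax at 42.1, and 22 genes with more than 25 peaks lie beyond the axis.

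iNKT cells had peaks at 5 of the 10 loci, where 16.9% of all protein-coding genes had at least 1. Mcl1 had 2 iNKT peaks and Bax, Bcl2l11, Pmaip1 and Bid had 1 each, while no iNKT peak was called at Bcl2, Bcl2l1, Bak1, Bbc3 or Bad. Sharing at least 1 bp with a DP peak was counted as overlap, and 5 of the 6 iNKT peaks, at 4 members, met this (83.3%, 95% Wilson interval 43.6 to 97.0, for counting error only). Over the whole iNKT list 69.3% of peaks did, a value inside that interval. Counted by gene, 4 of the 10 members and 13.1% of all protein-coding genes had such a shared site in their window. The scores of the 6 iNKT peaks ran from 54.1 to 182 with a median of 75.2, and the whole iNKT list had a median of 79.6. The score is the authors' MACS value, which is −log10 of the p-value of the peak multiplied by 10, and it ranks peaks within a list. It also grows with sequencing depth, which the lists do not give, so scores were not compared as amounts between DP and iNKT cells, and a locus without an iNKT peak had none detectable at the depth of that library.

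**Figure D2:**
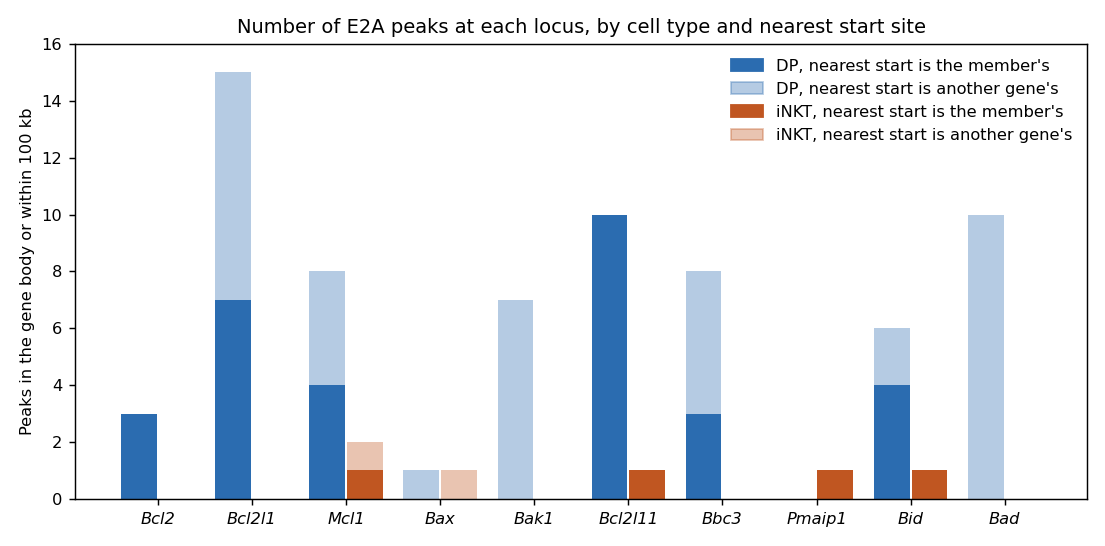
Number of E2A peaks at each of the 10 loci (y axis) in DP cells (blue) and iNKT cells (orange), with peaks whose nearest protein-coding start site is that of the member in full colour and the rest in pale colour. All 10 DP peaks of Bcl2l11 were nearest to that gene, and none of the 10 DP peaks of Bad was.

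Strong DP binding was present in the windows of 6 of the 10 members. The 10% of DP peaks with the highest scores began at a score of 958, and 11 of the 68 peaks at these loci were among them (16.2%, 95% Wilson interval 9.28 to 26.7, for counting error only). Over the whole DP list this share of peaks is 10.0% by definition. Counted by gene, 6 of the 10 members and 18.5% of all protein-coding genes had such a peak in their window. The 11 peaks were 3 at Bad, 2 each at Bcl2l1, Bcl2l11 and Bid, and 1 each at Mcl1 and Bbc3. Those at Bad were each nearest to the start of another gene, and the rest to that of the member. Of these 11, 3 overlapped an iNKT peak (27.3%, 9.75 to 56.6), as did 30.8% of all DP peaks in the top 10% (28.7 to 33.0). Across the roles, the windows of the 3 pro-survival genes held 26 DP peaks and 2 iNKT peaks, those of the 2 effectors 8 and 1, and those of the 5 BH3-only genes 34 and 3. The classes differ in size, and by nearest start site the DP counts were 14, 0 and 17. The median score of the 68 DP peaks was 182, against 141 over the whole DP list.

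**Figure D3:**
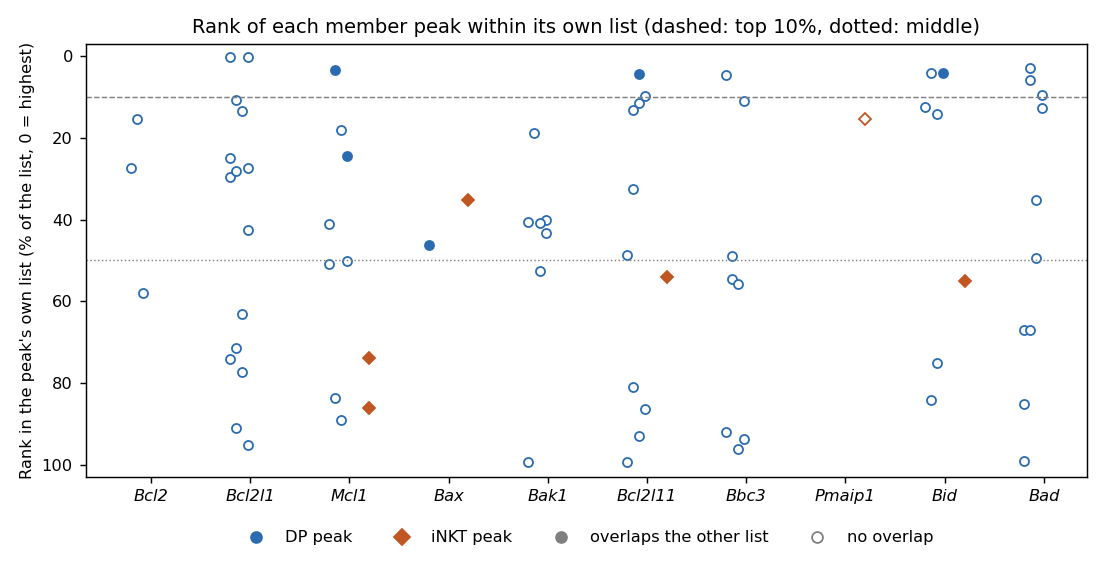
Rank of each of the 74 member peaks within its own list, as a percent of the list with 0 as the highest (y axis), for the 10 loci (x axis), with DP peaks as blue circles, iNKT peaks as orange diamonds and filled symbols for peaks that overlap the other list. The highest DP peaks of Bcl2l1 ranked at 0.154% of the list, the best rank of the 258 DP peaks that share their score. The highest-ranked iNKT peak, at Pmaip1, ranked at 15.4%.

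Among the pro-survival genes, Bcl2l1 had the most DP peaks in its window and the highest scores. By nearest start site, 7 of its 15 DP peaks belonged to Bcl2l1, 4 to Cox4i2, 3 to Id1 and 1 to H13, so that by this count Bcl2l11 with 10 had more. The gene, ENSMUSG00000007659.11, spans chr2:152593052-152657464 (minus strand). Of its 15 DP peaks 10 had their midpoints inside the gene and 9 of those were intronic. A pair of intronic peaks, chr2:152640811-152644703 and chr2:152618944-152621480, both scored 3100. This value was shared by 258 DP peaks, and 26 peaks of the list were higher. At least 1 DP peak with a score of 3100 or more inside the gene was found at 0.626% of all protein-coding genes, and 2 or more at 0.0761%.

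The first of these intronic peaks was 3893 bp wide, the widest of the 68, and held 12 copies of CAGGTG and 5 of CAGCTG. In the DP list 0.616% of peaks held as many CAGGTG copies, and a wide peak has more room for them. Its stretch of 200 bases printed above has 5 E-boxes, each of the CAGGTG kind. The second peak, 2537 bp wide, held 4 CAGGTG and 3 CAGCTG. Other intronic DP peaks scored 914 (chr2:152629468-152630812, rank 1859), 738 (chr2:152614165-152616328, rank 2330) and 367 (chr2:152600815-152601951, rank 4369), and the remaining 4 ran from 77.4 to 178. Those of 738 and 367 lay nearer to the start of Cox4i2 than to that of Bcl2l1. The start of Bcl2l1 was itself covered by the DP peak chr2:152655133-152657951, which scored 317 and ranked 4909.

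No iNKT peak was called within 100 kb of Bcl2l1, and the nearest iNKT midpoint lay 505 kb from the gene. Both of its peaks of score 3100 are thus among the 8 top-ranked DP peaks of the members that overlapped no iNKT peak. Beyond the 3′ end of the gene, 3 DP peaks lay nearest to the start of Id1, which encodes another inhibitor of E proteins. The highest of them, chr2:152560244-152561557, scored 295, at a distance of 1.09 kb from the start of Id1 and 96.6 kb from that of Bcl2l1.

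Bcl2 (ENSMUSG00000057329.6, chromosome 1, minus strand, 108434755 to 108610851) is a long gene of 176 kb and had 3 DP peaks and no iNKT peak. Per megabase its 7.98 DP peaks put it at the 51.9 percentile of all protein-coding genes. The highest, chr1:108584026-108585371, lay in an intron 26.2 kb downstream of the 5′ end, scored 635 and ranked 2682. The start site was covered by a lower peak, chr1:108609804-108610861, with score 113 and rank 10154 and its midpoint in the 5′ UTR. The last, chr1:108411748-108412985, lay past the 3′ end and scored 327. The intronic peak held 1 CAGGTG and 1 CAGCTG, whereas the other 2 held neither. The CAGCTG of the intronic peak lies within chr1:108584862-108584961, shown for contrast with the richer sites of Bcl2l1.
Bcl2: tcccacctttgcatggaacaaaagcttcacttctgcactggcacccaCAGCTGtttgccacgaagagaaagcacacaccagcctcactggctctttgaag

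Mcl1 (ENSMUSG00000038612.9, chromosome 3, plus strand, 95462643 to 95467099) carried binding in both cell types, downstream of the gene. Its highest DP peak, chr3:95471845-95473785, scored 2140 and ranked 589, and its midpoint was 10.2 kb from the 5′ end. The iNKT peak chr3:95472141-95473622 lay wholly inside it, with midpoints 66 bp apart, score 58.9 and rank 1121 of 1516. Both peaks contained the same CAGGTG printed above, which began 10.1 kb from the 5′ end. A second shared site followed, its E-box 15.8 kb from the 5′ end, with the iNKT peak chr3:95478162-95479193 (score 54.1, rank 1305) inside the DP peak chr3:95478101-95480562 (score 377, rank 4279). This site lay nearest to the start of Adamtsl4 rather than that of Mcl1. Between the shared sites lay the DP peak chr3:95475680-95478079 (score 536), without an iNKT counterpart, and 21 bp separated it from the next DP peak. Inside Mcl1 itself the intronic DP peak chr3:95463084-95464129 scored 140 and held neither E-box.

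The effector genes Bax and Bak1, whose proteins open the mitochondrial outer membrane, had no DP peak inside the gene and no peak of either list whose nearest start was their own. Among all 10 members 6 had a DP peak inside the gene, as did 20.4% of all protein-coding genes. Bax (ENSMUSG00000003873.9, chromosome 7, minus strand, 52717065 to 52722268) shares its window with the starts of 15 other protein-coding genes and had 1 DP and 1 iNKT peak. The DP peak chr7:52669477-52671596 (score 159, rank 8111) contained the iNKT peak chr7:52670473-52671477 (score 102, rank 533). Both midpoints lay within Ntf5, 51.7 and 51.3 kb downstream of the start of Bax. The DP peak held 10 CAGGTG and 2 CAGCTG.

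Bak1 (ENSMUSG00000057789.6, chromosome 17, minus strand, 27156755 to 27165954) had 7 DP peaks with scores from 50.2 to 514 and no iNKT peak. The highest, chr17:27154190-27155225, ranked 3278. It lay just past the 3′ end of Bak1 and 0.262 kb from the start of Ggnbp1. The other 6 were nearest to Ggnbp1, Itpr3 or Phf1.

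**Figure D4:**
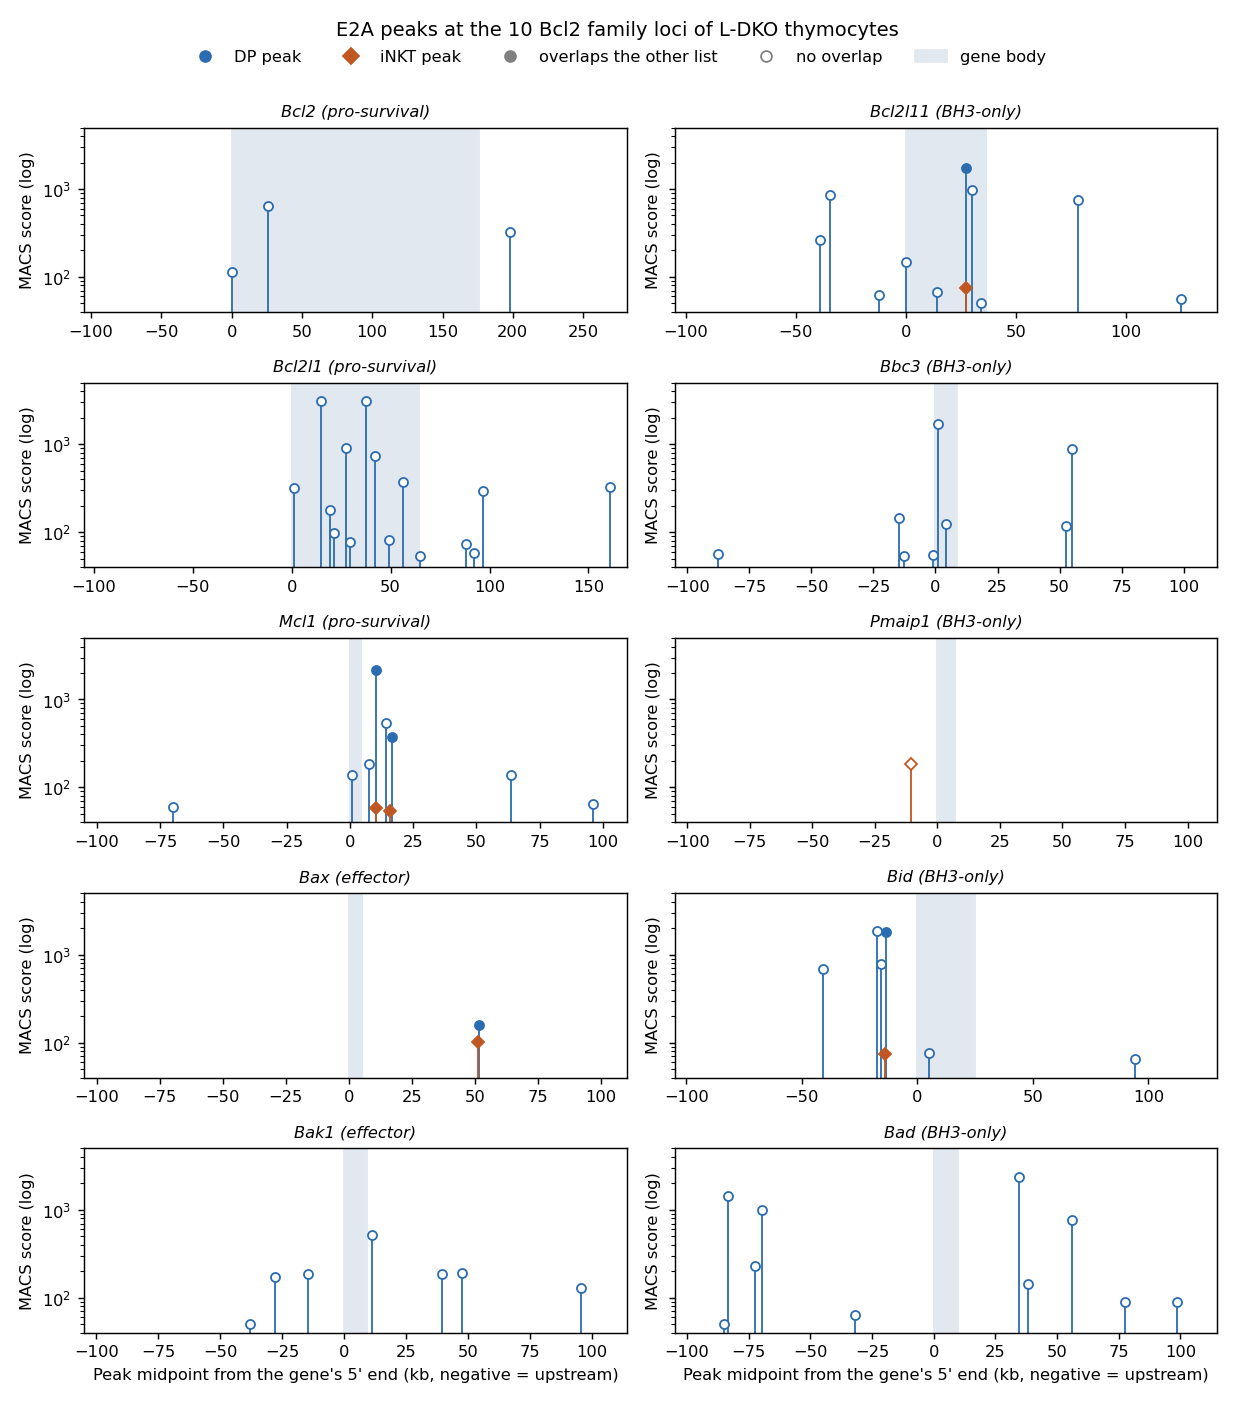
MACS score of each E2A peak (y axis, log scale) against the distance of its midpoint from the 5′ end of the gene (x axis, kb, negative upstream) at the 10 loci, with DP peaks as blue circles, iNKT peaks as orange diamonds, filled symbols for peaks that overlap the other list and the gene body in grey. DP peaks of score 3100 stand in the body of Bcl2l1 without an iNKT peak, and the Pmaip1 window holds an iNKT peak and no DP peak.

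Bcl2l11, the gene of Bim, has no other protein-coding start site within 100 kb, although the body of Acoxl reaches into its window, and each of its 10 DP peaks and its iNKT peak had Bcl2l11 as the nearest start. The gene, ENSMUSG00000027381.10, spans chr2:127951774-127988283 (plus strand). Its highest DP peak, chr2:127977594-127980342, was intronic, scored 1750, ranked 777 and contained 4 CAGGTG. The iNKT peak chr2:127978316-127979369, 27.1 kb from the 5′ end, lay wholly within it and held the same number of CAGGTG boxes, with score 75.5 and rank 819. At 904 bp from that DP peak came another intronic one, chr2:127981247-127982681, which scored 969 and ranked 1718. The start site was covered by a lower DP peak, chr2:127950948-127952769, which scored 146.

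Upstream of Bcl2l11, inside the neighbouring gene Acoxl, DP peaks lay 34.4 kb (chr2:127916463-127918357, score 847), 38.9 kb (score 262) and 12.1 kb (score 62.0) from the 5′ end. Downstream, the peak chr2:128029014-128030558 at 78.0 kb scored 743. None of these overlapped an iNKT peak.

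Bbc3, the gene of Puma, had the strongest binding over its own start site. The gene, ENSMUSG00000002083.6, spans chr7:16894965-16903554 (plus strand). The DP peak chr7:16894649-16897090 covered both starts of its coding transcripts, scored 1694 and ranked 816 of 17532. Over all protein-coding genes, 11.0% had a DP peak over a start of their own and 0.729% had one from the top 10% of the list, while among the members 4 had one over a start (Bcl2, Bcl2l1, Bcl2l11 and Bbc3) and Bbc3 alone had one from the top 10%. This peak held 6 CAGGTG and 1 CAGCTG, and the E-box nearest to its midpoint, within chr7:16895911-16895940, is shown next.
Bbc3: cggggtggggtgCACCTGtccgtttacggg

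Another DP peak, chr7:16893526-16894558 (score 55.0), ended 90 bp before it, and the midpoint of chr7:16898604-16899503 (score 123) fell on an exon. The next strongest of the window, chr7:16949225-16950520 (score 890), lay in Sae1. The nearest iNKT midpoint was 3500 kb from Bbc3, the largest such distance among the 10 members.

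Pmaip1, the gene of Noxa, had an iNKT peak and no DP peak. The gene, ENSMUSG00000024521.7, spans chr18:66618258-66625204 (plus strand), and no other protein-coding start site lies within 100 kb. The iNKT peak chr18:66607050-66608088 lay 10.7 kb upstream, scored 182 and ranked 233, the highest rank of the 6 iNKT peaks. It held 2 CAGGTG and 1 CAGCTG. The DP list had no peak in the window, and its nearest peaks lay 658 kb upstream (chr18:65959677-65960570, score 68.6) and 743 kb downstream (chr18:67360567-67361103, score 60.4). Such a pattern, an iNKT peak with no DP peak within 100 kb, was found at 1.44% of all protein-coding genes, and at 1 of the 10 members. The words of 31 bases in this peak, as in all 74 member peaks, had a median of 1 copy in the assembly.

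Bid, which is cleaved by caspases and links death receptors to the mitochondrion, had a run of binding upstream. The gene, ENSMUSG00000004446.6, spans chr6:120841948-120866871 (minus strand). The run consisted of 3 DP peaks that together spanned 6.04 kb from 120879094 to 120885136, with gaps of 189 and 2 bp between them. Their scores were 1835, 787 and 1847, and they lay 13.5, 15.9 and 17.5 kb upstream of the 5′ end. Those of 787 and 1847 lay inside the neighbouring gene Mical3, although their nearest start was that of Bid. The peak of 1835 lay in no protein-coding gene. The iNKT peak chr6:120880176-120881362 (score 74.8, rank 834) lay inside this DP peak of score 1835, whose DP rank was 734. That DP peak held 7 CAGGTG and 5 CAGCTG, and the highest peak of the run, ranked 724, held 5 CAGGTG and overlapped no iNKT peak. Farther upstream, 1.07 kb from the start of Mical3, the DP peak chr6:120906861-120908313 scored 686.

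Bad (ENSMUSG00000024959.7, chromosome 19, plus strand, 7016351 to 7026388), whose product is held inactive by survival-factor signalling, has the starts of 16 other protein-coding genes in its window. It had 10 DP peaks, none inside the gene and none nearest to its start, and the closest midpoint was 24.4 kb away. The highest, chr19:7049817-7051665, scored 2377 and ranked 491, the highest rank at any of these loci after the intronic pair of Bcl2l1, and it lay 1.20 kb from the start of Ppp1r14b. Over the start of Ccdc88b lay the peak chr19:6932001-6933403 (score 1456). Bax, Bak1 and Bad were the 3 members with DP peaks at which every one was nearer to another gene.

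Motif content was counted in the member peaks and in the whole lists. Over the 200 bp at the midpoint, CAGGTG was present at 27 of the 68 DP peaks (39.7%, 95% Wilson interval 28.9 to 51.6), against 43.9% of all DP peaks, and CAGCTG at 29.4% against 29.0%. The Runx core ACCACA was present at 26.5% (17.4 to 38.0) against 23.8%, and the Tcf7/Lef1 core TCAAAG at 13.2% (7.12 to 23.3) against 17.4%. All 4 values over all DP peaks fall inside the intervals of the member peaks. Over the whole width of the peak, 61 of 68 held CAGGTG or CAGCTG (89.7%) and 91.9% of all DP peaks did. Taken singly, CAGGTG was in 79.4% (68.4 to 87.3) against 79.0%, and CAGCTG in 72.1% (60.4 to 81.3) against 63.4%. The 7 peaks without either were 2 at Bcl2, 2 at Mcl1 and 1 each at Bak1, Bid and Bad. All 6 iNKT peaks held CAGGTG somewhere in the peak, as 80.9% of all iNKT peaks did. Over the 200 bp at the midpoint 2 of the 6 held it (33.3%, 9.68 to 70.0), against 52.9% of all iNKT peaks.

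Other genes of the pathway were examined by the same rule, as a list of 13 further Bcl2 family genes and 7 genes that act after the mitochondrial membrane opens. Of the 13, 9 had a DP peak and 2 an iNKT peak, and of the 7, 6 and 1 had them, where the shares over all protein-coding genes were 65.1% for DP and 16.9% for iNKT peaks. The median was 2 DP peaks per family gene and 3 per downstream gene, against 2.0 over all protein-coding genes. No DP peak was called within 100 kb of the pro-survival genes Bcl2a1a, Bcl2a1b and Bcl2a1d, of Bok, or of Xiap, an inhibitor of caspases. Reads with several equally good positions were dropped before peak calling. How much of these windows uniquely placed reads could reach was not examined, which limits what the absence of a peak shows.

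The BH3-only gene Bmf had the most of these, with 14 DP peaks. Its highest, chr2:118323710-118326496, scored 3100 and overlapped the iNKT peak chr2:118324753-118326054 (score 418, rank 67). That DP peak lay 50.3 kb downstream of the start of Bmf and nearer to Srp14. Bcl2l13 had 8 DP peaks, and Bik and Bcl2l15 had 7 each. Bcl2l13 lies next to Bid, and its window holds the iNKT peak of Bid as well as chr6:120710902-120711903 (score 382), which lay 3.25 kb from the start of Cecr2. Diablo, which encodes an antagonist of Xiap, had the iNKT peak chr5:124029729-124030695 (score 61.8), which lay nearest to Vps33a and overlapped a DP peak that scored 849.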

How the data were processed

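E2A ChIP-Seq of sorted L-DKO thymocytes was used, with 1 E2A library and 1 input per cell type. Per the submitters' processing notes and the study's methods, the tools were Bowtie 1.1.2 for alignment (mm9, reads with several equally good positions dropped) and MACS 1.4.2 with its defaults for peak calling. The authors deposited the score of each peak with its position. The lowest score, 50.0, is a p-value of 1e-05. Both lists number their peaks without gaps. Inputs, coverage and depth are not analysed here.

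Genes, exons and start sites of coding transcripts came from GENCODE M1 on NCBIM37, the assembly named mm9, and no peak ran past a chromosome end. Starts are counted from 1. Distances run from peak midpoint to the gene's 5′ end, and the nearest gene is that of the nearest start of a coding transcript. Peaks with equal scores share the best rank among them. Motifs were searched on both strands. No test was made, and shares carry 95% Wilson intervals. The members and lists were chosen with earlier results of these data known. Peaks named at each member are every iNKT peak, the highest DP peak, the highest DP peak nearest to the member and those over its start. Others were chosen after their values were seen. Pathway genes named are those with an iNKT peak and those with the most DP peaks, Bik and Bcl2l15 being tied, and genes without a DP peak were named after their values were seen. The functions were tested on simulated data and passed 11 of 11 checks. Python 3.11.15, scipy 1.17.1, pysam 0.24.0, numba 0.67.0 and samtools 1.23.1 were used.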

Additional observations from a re-analysis of the deposited data

How the results depend on the processing

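With 1 library per cell type no replicate could be left out. No paired analysis was possible because each group has 1 sample and no result comes from a test. Of 27 alternative values of 6 results, 13 stayed within 1.5 times the count and 14 moved. The number of DP peaks at the 10 loci, 68, became 30 with a minimum score of 200, 41 within 30 kb of the gene, 31 when the nearest start had to be that of the member, and 9 when the DP list was limited to as many peaks as the iNKT list. The 6 iNKT peaks became 2 with a minimum score of 100 and 0 with 200, and the members with an iNKT peak went from 5 to 2 and 0. The number of iNKT peaks shared with DP cells, 5, became 1 and 0 at these scores, 3 with the nearest start, 3 with the shortened DP list and 1 when 50% of each peak had to be shared. These numbers fall by construction, since each setting keeps fewer peaks or overlaps. The share of the 74 member peaks with CAGGTG, 39.2%, became 81.1% when the whole peak was searched, a longer sequence. The members with a DP peak numbered 9 and stayed between 6 and 9. The unknown depth of the libraries limits what the absence of an iNKT peak shows.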

Other observations

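The intronic DP peak chr2:127981247-127982681 of Bcl2l11 held 10 copies of the Runx core ACCACA, picked out after its value was seen. The next richest member peak held 5, and 22 of the 17532 DP peaks (0.125%) held as many. Of the 10 copies 8 lay in the 200 bases at chr2:127981828-127982027, with capitals for the core alone, all on the strand shown. A CACCTG near the end of the stretch is left in lower case. The 8 copies recur within a repeated pattern of bases, so they are not independent occurrences of the core.
Bcl2l11: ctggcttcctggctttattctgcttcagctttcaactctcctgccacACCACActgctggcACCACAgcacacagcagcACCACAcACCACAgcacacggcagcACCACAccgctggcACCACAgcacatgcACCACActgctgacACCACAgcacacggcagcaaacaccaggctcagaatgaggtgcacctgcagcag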
